A study of Mus musculus with 4 samples.

Results

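Collagens are the chains of the extracellular matrix that wind into a triple helix, and they were read here as a gene family in mouse hearts after transverse aortic constriction (TAC). Members were all mouse genes with a symbol made of Col, a number, the letter a and a second number. They were found through the transcript accession that each array probe carries, and each gene was read from its brightest probe, taken by mean signal over the arrays. Of 44 such symbols, 42 had a matched probe, out of 21762 genes with one. The collagens were covered by 64 probes. Col12a1, which coats collagen fibrils, and Col6a3, a chain of the beaded microfibrils of type VI collagen, had no probe matched through the tables used and were not analysed here.

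The data are 4 single-colour Agilent microarrays of heart RNA from male C57BL/6J mice, 1 array each for sham and TAC at 2 weeks and for sham and TAC at 8 weeks. TAC narrows the aortic arch, which loads the left ventricle with pressure, while sham mice had surgery without the constriction. The study took the earlier time for the hypertrophic response and the later time for the heart failure phase. Per the study's methods, each array held RNA pooled from 4 to 6 mice. By the labels, the mice were 10 weeks old at the earlier time and 16 weeks old at the later one, whereas the methods give an older age at surgery than this implies. The labels name no transgene, deletion or drug in any group. With 1 array per group the spread between mice could not be measured, no test was run, and each fold change is the ratio of 2 pools.

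The triple helix gives collagens their tensile strength, and their classes build different structures. Fibrillar collagens, led by types I and III, form the banded fibres that join heart muscle cells into a working wall, and are made mainly by cardiac fibroblasts. Type IV collagen forms the sheet-like network of basement membranes around cardiomyocytes and capillaries. FACIT collagens (fibril-associated collagens with interrupted triple helices) decorate the surface of fibrils, and the remaining members include the microfibrils of type VI, the endostatin-bearing types XV and XVIII, and the network-forming type VIII. An increase in fibrillar collagen is a known part of cardiac fibrosis.

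Signals are given as multiples of the array's own 75th percentile, which was 206, 206, 221 and 248 intensity units for sham and TAC at 2 weeks and sham and TAC at 8 weeks. A signal of 1 thus lies at the 75th percentile of all probes other than controls. Between 54.7% and 58.5% of the probes of an array were well above background by the scanner's flag, and no spot was saturated. Each probe has its own sensitivity, so levels were compared between arrays and not between genes. The 8 cardiomyocyte markers, among them Myh6 and Tnnt2, were well above background on all 4 arrays. Of the 399 probes printed in 10 spots, between 262 and 274 per array had every spot kept well above background. In these, 2 spots with identical probe sequence differed with an SD of 0.154 in their log2 ratio. This SD measures the error within an array and not that between mice, and it leaves out probes near background.

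Of the 42 collagen genes, 26 were well above background on all 4 arrays, 6 on some and 10 on none. The 32 genes measured on at least 1 array compare with a share of 72.9% over all genes. The 10 that stayed near background were Col2a1, Col11a1, Col24a1, Col19a1, Col6a4, Col6a5, Col10a1, Col13a1, Col17a1 and Col28a1. They include the cartilage collagens Col2a1, Col11a1 and Col10a1 and the skin collagen Col17a1, and only an upper bound is known for them.

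Collagens as a family were higher in the TAC pool at both times, by about 1.5-fold to 1.6-fold at the median. At 2 weeks, 25 of the 31 genes measured in the pair were higher after TAC, with a median log2 change of 0.71, or 1.64-fold. Over all genes the share higher was 50.1% and the median was 0.0005. At 8 weeks, 25 of 32 were higher, with a median of 0.61, or 1.52-fold, against a share of 48.5% and a median of -0.009 over all genes. Over the 26 collagens measured on all 4 arrays the medians were 0.67 at 2 weeks and 0.61 at 8 weeks. A gene was called up if TAC exceeded sham by over 2-fold with a TAC signal well above background, and called down for the opposite. By this rule 5 collagens were up at 2 weeks, where 2.47% of all genes measured were up, and 10 at 8 weeks, where 3.31% were up. None was down at 2 weeks, beside 1.21% of all genes, and at 8 weeks the 1 that was down was Col6a6, beside 2.07%. Changes between 1.5-fold and 2-fold were common in the family. Of the measured genes, 19 of 31 at 2 weeks and 18 of 32 at 8 weeks were over 1.5-fold higher, where all genes gave 6.8% and 7.26%. In heart tissue, more cells that make a collagen and more RNA per cell cannot be told apart.

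The genes up at 2 weeks were Col5a2, Col8a1, Col8a2, Col25a1 and Col26a1. Those up at 8 weeks were Col1a1, Col5a2, Col4a3, Col9a2, Col9a3, Col14a1, Col16a1, Col8a1, Col8a2 and Col26a1. In all, 11 genes were up at either time and 4 at both (Col5a2, Col8a1, Col8a2 and Col26a1), of 31 measured in both pairs. Over all genes 0.819% were up at both times. Col4a3, Col8a2 and Col9a3 were well above background on TAC arrays only, and Col25a1 was below that flag in sham at 2 weeks. These calls thus entered through the arrays where the genes were high, and the shares over all genes include such calls too. A change above 0 at both times was seen in 23 of the 31, against 33.8% of all genes. Between the sham pools, at 8 over 2 weeks, no collagen was over 2-fold higher (1.68% of all genes) or lower (1.03%). There 15 of 29 were higher, against 56.8% of all genes, and the median was 0.0023. Both TAC signals lay above both sham signals in 20 of the 26 collagens measured on all 4 arrays, compared with 23.8% of all such genes. The exceptions were Col4a6, Col9a1, Col11a2, Col20a1, Col22a1 and Col23a1. The widest differences between the sham pools were in Col14a1, which was lower by -0.92 on the log2 scale at 8 weeks, Col27a1 at 0.74 and Col23a1 at -0.64.

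**Figure D1:**
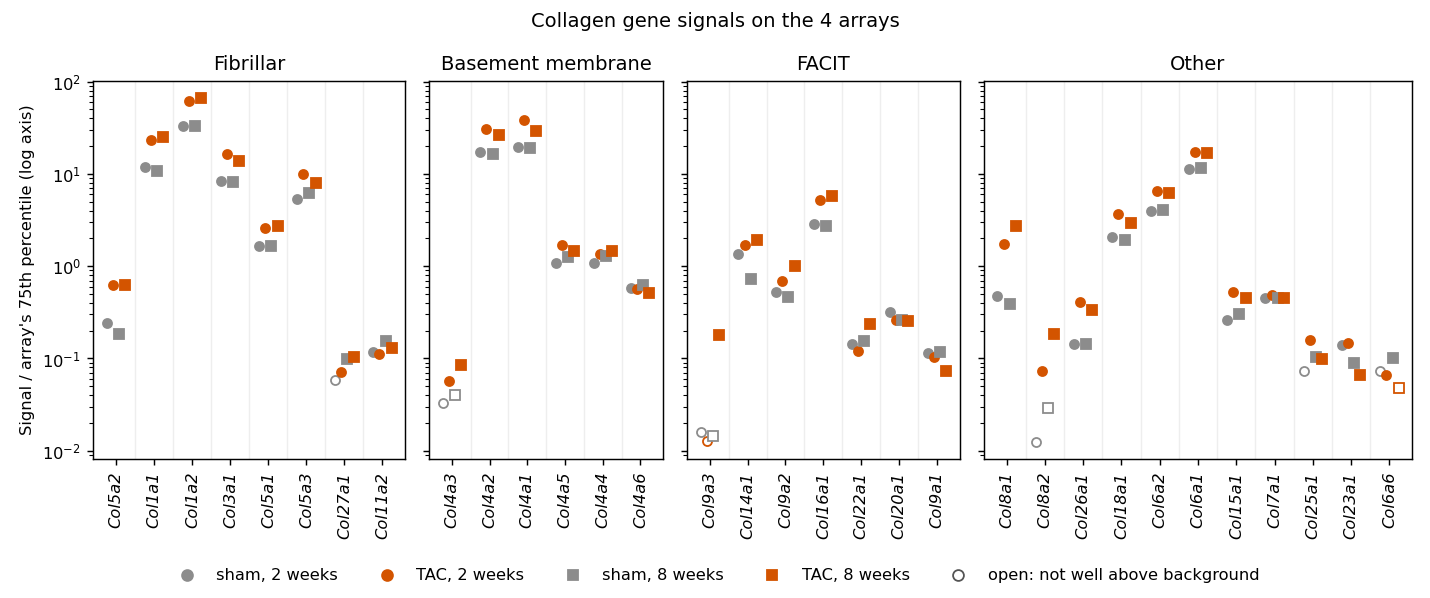
Signal of the 32 collagen genes measured on at least 1 array, as a multiple of the array's 75th percentile on a log axis, with circles for 2 weeks, squares for 8 weeks, grey for sham and orange for TAC. Open symbols were not well above background, and both TAC points lie above both sham points for 20 of the 26 genes drawn with filled symbols throughout, among them Col1a1, Col3a1, Col4a1 and Col8a1.

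Fibrillar collagens were higher after TAC at both times. Of the 8 measured, 7 were higher at each time, with a median log2 change of 0.89 at 2 weeks and 0.73 at 8 weeks. At 2 weeks 6 were over 1.5-fold higher and at 8 weeks 5. The exception was Col11a2, a minor fibril chain.

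Type I collagen, the main fibre of scar and of the heart's interstitium, is built from the chains of Col1a1 and Col1a2. Col1a1 had a signal of 11.9 in sham and 23.3 in TAC at 2 weeks, and of 10.9 in sham and 25.0 in TAC at 8 weeks. Col1a2 had 33.0 and 61.5 at 2 weeks and 33.3 and 66.2 at 8 weeks. Both chains were thus nearly level between the sham pools and close to 2-fold higher in both TAC pools. Col1a1 was 1.96-fold higher at 2 weeks and 2.30-fold at 8 weeks, and Col1a2 was 1.86-fold and 1.99-fold higher. The log2 changes of the chains differed by -0.07 at 2 weeks and -0.21 at 8 weeks (Col1a2 minus Col1a1). Col1a2 fell just short of the 2-fold line at 8 weeks, at 1.99, and Col1a1 just short at 2 weeks.

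Col3a1, the single chain of the thinner and more elastic type III fibres, had 8.38 in sham and 16.4 in TAC at 2 weeks, and 8.23 and 13.8 at 8 weeks. Its fold was 1.96 at 2 weeks and 1.68 at 8 weeks. The TAC signal of Col3a1 was lower at 8 than at 2 weeks by 0.25 on the log2 scale, while that of Col1a1 was higher by 0.10.

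Type V collagen sits inside type I fibrils and sets their diameter. Col5a2 changed most among the fibrillar genes, from 0.241 in sham to 0.623 in TAC at 2 weeks and from 0.183 to 0.623 at 8 weeks. The TAC signals were the same at both times, and the sham signal was lower at 8 weeks, so the fold went from 2.59 to 3.41. Col5a1 had 1.67, 2.59, 1.66 and 2.73 in sham and TAC at 2 weeks and sham and TAC at 8 weeks, which gave 1.55-fold and 1.65-fold. The change of Col5a2 was larger than that of Col5a1 by 0.74 on the log2 scale at 2 weeks and 1.05 at 8 weeks, although the chains share a trimer. Col5a3, a further chain of the type, had 5.41, 10.0, 6.15 and 8.04 in the same order. Its fold was 1.85 at 2 weeks and 1.31 at 8 weeks, the reverse order of Col5a2.

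The minor fibrillar genes were dim. Col11a2 had 0.119, 0.113, 0.155 and 0.129 in the order sham and TAC at 2 weeks, sham and TAC at 8 weeks, and was lower after TAC by -0.08 and -0.26 on the log2 scale. Col27a1, a cartilage fibril gene, had 0.0588 in sham at 2 weeks, where it was not well above background, and 0.0711 in TAC, so it was at least 1.19-fold higher. At 8 weeks it had 0.0981 in sham and 0.104 in TAC, or 1.06-fold, a difference smaller than the spread between spots that turned to -0.15 on the log2 scale under normexp.

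Promoter windows are shown for Col1a2 and Col3a1, fibre genes with like changes at 2 weeks, to set their start regions side by side. They run from 250 bases before to 50 bases after the RefSeq start on GRCm38.p6, 5′ to 3′ on the gene's strand, and are credited to RefSeq. Capitals mark 3 motifs on either strand. These were the TATA box with the letters TATAAA, the CCAAT box, searched by its name's own letters, and the GC box, searched as GGGCGG. The Col1a2 window lies at chr6:4505368-4505667 on the plus strand and the Col3a1 window at chr1:45311288-45311587 on the plus strand.
Col1a2: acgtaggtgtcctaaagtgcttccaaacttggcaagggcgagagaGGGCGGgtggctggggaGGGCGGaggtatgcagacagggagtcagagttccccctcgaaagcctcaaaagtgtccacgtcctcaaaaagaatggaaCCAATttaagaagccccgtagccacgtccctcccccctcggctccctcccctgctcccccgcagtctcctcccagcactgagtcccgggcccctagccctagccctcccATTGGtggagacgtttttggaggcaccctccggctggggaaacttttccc
Col3a1: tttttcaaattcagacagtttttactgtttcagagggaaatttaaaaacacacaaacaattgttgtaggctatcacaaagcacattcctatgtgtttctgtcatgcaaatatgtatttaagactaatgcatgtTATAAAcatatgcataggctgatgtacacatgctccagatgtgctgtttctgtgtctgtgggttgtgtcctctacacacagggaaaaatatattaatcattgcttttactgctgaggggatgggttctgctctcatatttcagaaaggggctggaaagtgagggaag
The Col1a2 window was 61.0% GC and held 2 GC boxes and 2 CCAAT boxes, with one CCAAT at -109 from the start. That of Col3a1 was 37.7% GC, and of these motifs it held only TATAAA, at -117. These windows had none of the 3 marked boxes in common, though both held the SMAD element CAGACA, and their changes at 2 weeks were 0.90 and 0.97 on the log2 scale.

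In type IV collagen, Col4a1 and Col4a2 were over 1.5-fold higher after TAC at both times, and Col4a3, dim in sham, was called up at 8 weeks. Col4a1 and Col4a2 form the heterotrimer found in nearly all basement membranes. Over the 6 type IV genes, 5 were higher at each time, and the median log2 change was 0.72 at 2 weeks and 0.43 at 8 weeks. The number over 1.5-fold higher was 4 at 2 weeks and 3 at 8 weeks, with Col4a3 counted at both. Col4a3 was well above background on TAC arrays only, so it entered through the arrays where it was high. Over the 5 genes measured on all 4 arrays, the medians were 0.63 and 0.22, with 4 higher at each time.

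Col4a1 had 19.8 in sham and 38.2 in TAC at 2 weeks and 18.9 and 29.4 at 8 weeks, which gave 1.93-fold and 1.55-fold. It is the only collagen with a probe printed in 10 spots. At 2 weeks its 9 spots kept after outliers ran from 18.0 to 20.9 in sham and from 36.2 to 40.7 in TAC. At 8 weeks its 10 spots ran from 16.8 to 20.04 in sham and from 27.4 to 31.9 in TAC. The spots of sham and TAC did not overlap at either time, which speaks to the error within an array only. Col4a2 had 17.4 and 30.9 at 2 weeks and 16.6 and 26.3 at 8 weeks, or 1.77-fold and 1.58-fold. The chains differed in their change by -0.12 and 0.03 on the log2 scale (Col4a2 minus Col4a1), both smaller than the SD of 0.154 between spots.

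The type IV genes lie in pairs that point away from each other. Col4a1 on the minus strand and Col4a2 on the plus strand of chromosome 8 have annotated models that overlap by 85 bp, with start sites 21 bp apart. The window of Col4a2, at chr8:11312555-11312854 on its own strand, therefore holds both start sites. It shares only 78 bp with the window of Col4a1, which is not shown. In the X-linked pair, Col4a6 on the minus and Col4a5 on the plus strand, 1274 bp separate the models. Their windows, which do not overlap, lie at chrX:141475169-141475468 on the plus strand for Col4a5 and chrX:141474027-141474326 on the minus strand for Col4a6. Capitals again mark the TATA, CCAAT and GC boxes.
Col4a2: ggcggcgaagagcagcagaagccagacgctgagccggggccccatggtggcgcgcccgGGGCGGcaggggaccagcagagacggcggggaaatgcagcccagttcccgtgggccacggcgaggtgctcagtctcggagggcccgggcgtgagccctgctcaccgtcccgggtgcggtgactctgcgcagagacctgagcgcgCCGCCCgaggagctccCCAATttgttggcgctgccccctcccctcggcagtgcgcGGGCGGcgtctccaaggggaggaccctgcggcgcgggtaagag
Col4a5: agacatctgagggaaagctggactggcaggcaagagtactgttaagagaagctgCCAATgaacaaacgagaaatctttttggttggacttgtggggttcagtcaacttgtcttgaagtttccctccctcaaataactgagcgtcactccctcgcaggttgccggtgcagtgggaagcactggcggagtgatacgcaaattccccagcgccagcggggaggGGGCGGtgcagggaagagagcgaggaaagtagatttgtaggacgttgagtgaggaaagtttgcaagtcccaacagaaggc
Col4a6: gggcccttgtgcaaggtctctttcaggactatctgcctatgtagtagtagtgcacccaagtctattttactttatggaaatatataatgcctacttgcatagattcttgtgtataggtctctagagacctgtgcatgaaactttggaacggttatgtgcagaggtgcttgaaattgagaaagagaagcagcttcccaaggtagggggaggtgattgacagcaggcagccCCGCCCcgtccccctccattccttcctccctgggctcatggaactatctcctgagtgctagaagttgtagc
The window of Col4a2 was 73.7% GC, with 3 GC boxes and a CCAAT at -32. Those of Col4a5 and Col4a6 were 52.7% and 48.3% GC and held 1 GC box each, and Col4a5 also held a CCAAT at -196.

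The members of the X-linked pair did not change alike. Col4a5, mutated in X-linked Alport syndrome, had 1.09 in sham and 1.69 in TAC at 2 weeks and 1.25 and 1.46 at 8 weeks, or 1.54-fold and 1.17-fold. Col4a6 had 0.577 and 0.566 at 2 weeks and 0.627 and 0.510 at 8 weeks, and was lower by -0.03 and -0.30 on the log2 scale. The change of Col4a6 was smaller by -0.66 at 2 weeks and -0.52 at 8 weeks. Its second probe measured on all arrays gave 0.42 and -0.04, so the direction for Col4a6 depended on the probe at 2 weeks.

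Col4a3 and Col4a4, the other head-to-head pair and chains of the kidney filter, overlap by 114 bp on chromosome 1. Col4a4 had 1.09, 1.35, 1.28 and 1.46 in sham and TAC at 2 weeks and sham and TAC at 8 weeks, or 1.23-fold and 1.14-fold higher. A second Col4a4 probe gave 0.58 and 1.15 on the log2 scale, well above the 0.30 and 0.19 of the brightest. Col4a3 was not well above background in either sham pool. It had 0.0574 in TAC at 2 weeks, with no fold that could be bounded above 1, and 0.0855 in TAC at 8 weeks, at least 1.62-fold higher than sham.

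**Figure D2:**
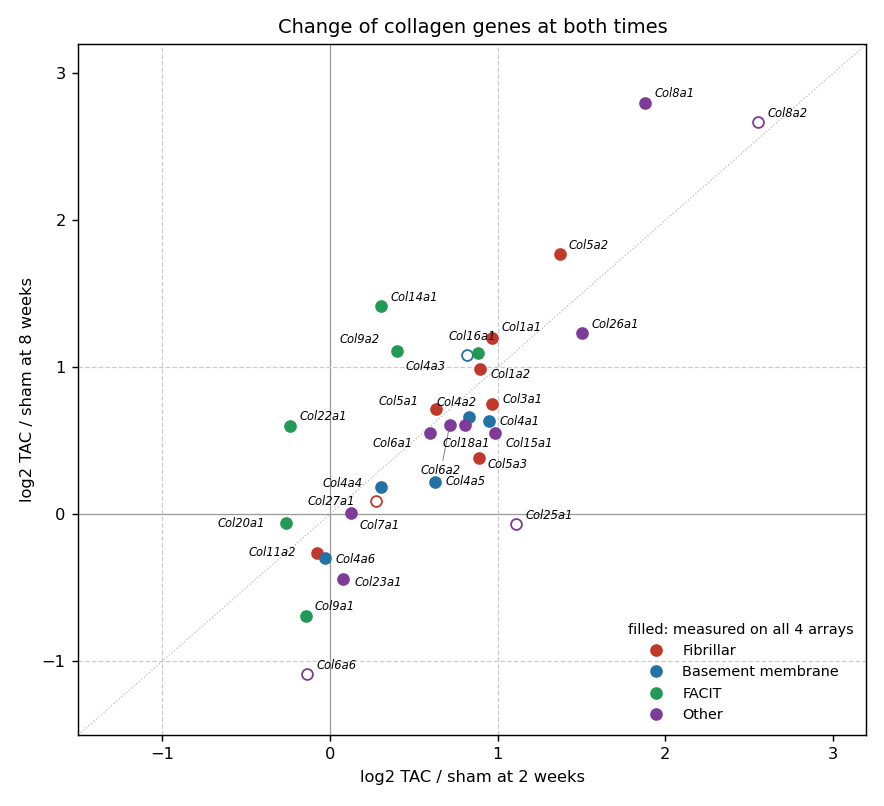
Log2 ratio of TAC over sham at 2 weeks (x axis) and at 8 weeks (y axis) for the 31 collagen genes measured in both pairs, coloured by class, with dashed lines at 2-fold and the dotted line at equal change. Open points were not well above background on every array and stand at their measured ratio; most genes lie above 0 on both axes, Col8a1 and Col8a2 lie at the top right, and Col14a1, Col9a2 and Col22a1 lie well above the dotted line.

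Several FACIT collagens had larger changes at 8 than at 2 weeks. At 2 weeks 3 of the 6 measured were higher and none was over 2-fold, with a median log2 change of 0.08. At 8 weeks 5 of 7 were higher and 4 were over 2-fold, with a median of 1.10. Col9a3 entered only through the TAC array at 8 weeks, where it was high, and the genes measured on all 4 arrays had a median of 0.85, with 4 of 6 higher. Among the genes measured on all 4 arrays, the change was larger at 8 than at 2 weeks in 5 of 6 FACIT genes, compared with 0 of 5 basement membrane, 4 of 7 fibrillar and 1 of 8 other collagens. For all genes the share was 51.2%. The median of the difference (8 minus 2 weeks, log2) was 0.46 for the FACIT genes, -0.27 for the basement membrane, 0.09 for the fibrillar and -0.15 for the other genes. These values rest on the brightest probe. Second probes measured on all arrays gave differences of -0.15 for Col20a1, 0.05 for Col14a1 and 0.53 for Col16a1. In the other classes, those of Col4a4 and Col6a2 gave 0.57 and 0.32, against -0.12 and -0.11 by the brightest probe. With 1 pool per group the difference between the times was not tested.

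Col16a1, a fibril-associated collagen of many connective tissues, was higher after TAC at both times. It had 2.84 in sham and 5.23 in TAC at 2 weeks and 2.71 and 5.80 at 8 weeks, or 1.84-fold and 2.14-fold. A second probe on all arrays gave 0.80 and 1.33 on the log2 scale, beside 0.88 and 1.10.

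Col14a1, which binds fibril surfaces and limits their fusion, had 1.37 in sham and 1.69 in TAC at 2 weeks and 0.721 and 1.92 at 8 weeks. The 2.67-fold change at 8 weeks, against 1.24-fold at 2 weeks, came with a sham signal that was lower at 8 weeks, while the TAC signals differed by 0.18 on the log2 scale. Its second probe did not show the low sham value, with 0.170, 0.269, 0.192 and 0.312 in the same order, and gave log2 changes of 0.66 and 0.71. The 2-fold call of Col14a1 and its difference between the times therefore held for the brightest probe only.

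Type IX collagen coats the fibrils of cartilage. Col9a2 had 0.521 and 0.688 at 2 weeks and 0.461 and 0.997 at 8 weeks, so it was 1.32-fold and 2.17-fold higher. Col9a3 was not well above background on 3 of the arrays and had 0.182 in TAC at 8 weeks, at least 3.44-fold above sham. Col9a1, the partner chain, had 0.114, 0.103, 0.117 and 0.0729 in the order of the groups, and its signal was lower after TAC by -0.14 and -0.69 on the log2 scale. By their brightest probes, these chains of one collagen type were thus apart by 1.80 on the log2 scale at 8 weeks (Col9a2 minus Col9a1). Col9a1 was dim throughout, and its second probe was not well above background on any array, so this difference rests on a dim signal.

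Col22a1, which is known from tissue junctions such as those of muscle and tendon, had 0.143 in sham and 0.121 in TAC at 2 weeks and 0.155 and 0.236 at 8 weeks. It was lower at 2 weeks by -0.24, where normexp background correction turned the sign to 0.06, and higher at 8 weeks by 0.60 on the log2 scale. Col20a1 had 0.316, 0.264, 0.264 and 0.253 in the order of the groups. Its change of -0.26 at 2 weeks equalled the difference of -0.26 between the sham pools, and at 8 weeks it was -0.06, a value whose sign turned under 3 of the scalings. A second Col20a1 probe, measured on all arrays, gave -0.19 and -0.34.

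**Figure D3:**
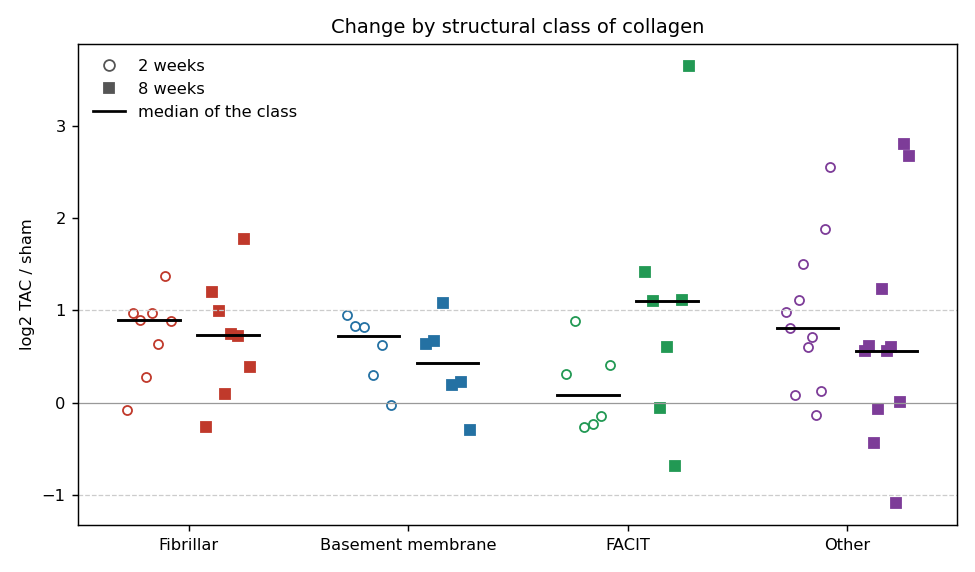
Log2 ratio of TAC over sham for each measured collagen gene by structural class, with open circles for 2 weeks, filled squares for 8 weeks, a bar at the class median and dashed lines at 2-fold. Genes dim on 1 array stand at their measured ratio, as Col9a3 does at the top of the FACIT class; the FACIT median lies at 0.08 at 2 weeks and 1.10 at 8 weeks (0.85 over genes measured on all 4 arrays), whereas the other medians are lower at 8 weeks.

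The remaining 11 measured collagens include Col8a1, which had the largest change among the collagens measured on all 4 arrays. At 2 weeks 10 were higher, with 4 over 2-fold, and at 8 weeks 8 were higher, with 3 over 2-fold. Over all genes 2.47% and 3.31% were over 2-fold higher. Col8a2 at both times and Col25a1 at 2 weeks were not well above background in sham, so they entered through TAC. The called genes measured on all 4 arrays were Col8a1 and Col26a1 at each time. The median log2 change of the 11 genes was 0.80 at 2 weeks and 0.56 at 8 weeks. Over the 8 measured on all 4 arrays it was 0.76 and 0.58.

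Type VIII collagen is a short-chain network former of vessel walls and of the cornea. Col8a1 had 0.471 in sham and 1.73 in TAC at 2 weeks, and 0.388 in sham and 2.70 in TAC at 8 weeks. It was 3.68-fold and 6.97-fold higher. Its TAC signal was higher at 8 than at 2 weeks by 0.64 on the log2 scale. Its partner chain Col8a2, read by its brightest probe, was not well above background in either sham pool. It had 0.0737 in TAC at 2 weeks, at least 1.23-fold above sham, and 0.186 in TAC at 8 weeks, at least 3.505-fold above sham. A second Col8a2 probe was well above background in sham at 8 weeks only, at 0.0729 against 0.0532 in TAC. By that probe Col8a2 was lower, at a measured ratio of 1.37-fold that is not a bound. Both the size and the direction of the change in Col8a2 at 8 weeks thus rest on the brightest probe.
The promoter window of Col8a1, shown as that of the gene with this largest change among those measured on every array, lies at chr16:57754688-57754987 on the minus strand, is 60.3% GC and holds 4 GC boxes, in capitals.
Col8a1: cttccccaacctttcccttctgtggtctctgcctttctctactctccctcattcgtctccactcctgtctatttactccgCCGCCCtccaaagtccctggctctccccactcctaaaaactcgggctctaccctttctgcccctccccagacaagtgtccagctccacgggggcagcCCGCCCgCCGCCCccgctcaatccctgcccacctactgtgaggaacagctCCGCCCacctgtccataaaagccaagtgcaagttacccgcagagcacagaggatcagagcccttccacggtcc

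Type VI collagen forms beaded microfibrils next to the cardiomyocyte's basement membrane. Col6a1 had 11.3 and 17.1 at 2 weeks and 11.5 and 16.9 at 8 weeks, or 1.52-fold and 1.47-fold. Col6a2, its neighbour on chromosome 10, had 3.94 and 6.47 at 2 weeks and 4.04 and 6.15 at 8 weeks, or 1.64-fold and 1.52-fold. By their brightest probes, these chains of type VI were apart in their changes by 0.11 and 0.05 on the log2 scale, less than the SD between spots. A second Col6a2 probe, measured on all arrays, gave larger changes of 0.94 and 1.26. Col6a6, a further type VI chain, was the one collagen down at 8 weeks. It had 0.102 in sham and 0.0481 in TAC, a measured ratio of 2.13-fold lower. The TAC value was not well above background, so this ratio is not a bound. At 2 weeks Col6a6 had 0.0731 in sham, below the background flag, and 0.0666 in TAC.

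Types XV and XVIII lie at basement membranes and release endostatin-like fragments. Col15a1 had 0.263 and 0.521 at 2 weeks and 0.306 and 0.449 at 8 weeks, or 1.98-fold and 1.47-fold. Col18a1 had 2.09 and 3.65 at 2 weeks and 1.93 and 2.94 at 8 weeks, or 1.75-fold and 1.52-fold. Both were higher in each TAC pool and by less at the later time, as were Col4a1 and Col4a2.

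Col26a1 had 0.143 in sham and 0.406 in TAC at 2 weeks and 0.143 and 0.336 at 8 weeks, or 2.84-fold and 2.35-fold. Its second probe, not well above background in sham at 2 weeks, gave 2.28 and 0.69 on the log2 scale. Col25a1, a membrane-anchored collagen known from neurons, was called at 2 weeks only. It had 0.0741 in sham, not well above background, and 0.16 in TAC at 2 weeks, a measured ratio of 2.16-fold that is not a bound. At 8 weeks it had 0.104 and 0.0995, a difference whose sign turned under 3 of the scalings. Col7a1, the anchoring fibril of skin, had 0.449 and 0.490 at 2 weeks and 0.447 and 0.450 at 8 weeks, differences within the spread between spots. Col23a1, a transmembrane collagen, had 0.1397 and 0.148 at 2 weeks and 0.0899 and 0.0663 at 8 weeks. Its log2 change was 0.08, with a sign that turned under normexp, and -0.44, and the sham pools differed by -0.64, so by this probe it was lower at 8 weeks in sham as well. A second Col23a1 probe, dim in sham at 2 weeks, was at least 1.14-fold higher in sham at 8 weeks and gave 0.05 for TAC over sham there.

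**Figure D4:**
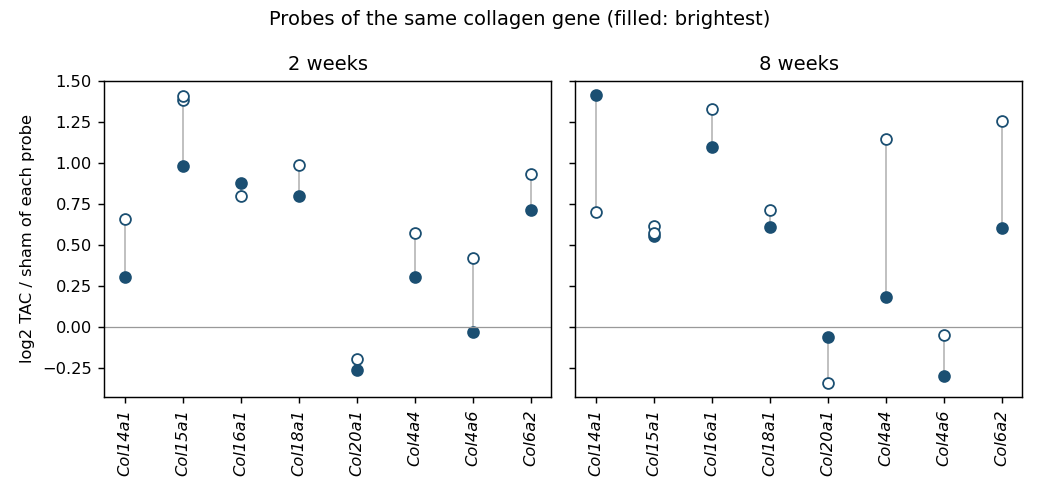
Log2 ratio of TAC over sham of each probe at 2 weeks (left) and 8 weeks (right), for the 8 collagen genes with more than 1 probe well above background on all 4 arrays, with the brightest probe filled. Probes of Col18a1 lie close together, whereas those of Col14a1, Col4a4 and Col6a2 lie apart at 8 weeks.

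Different probes of the same gene show how far a fold can depend on where a transcript is read. Of the 8 genes with several such probes measured on every array, Col18a1 and Col15a1 were the tightest at 8 weeks, where log2 changes ran from 0.61 to 0.72 for Col18a1 and from 0.55 to 0.62 for Col15a1. They ran from 0.71 to 1.41 for Col14a1, from 0.19 to 1.15 for Col4a4 and from 0.61 to 1.26 for Col6a2. At 2 weeks those of Col15a1 ran from 0.98 to 1.41. Across the 26 genes measured on all 4 arrays, the changes at 2 and 8 weeks had a Pearson r of 0.79 and a Spearman rho of 0.72, compared with 0.59 and 0.54 over 14298 genes. Genes are not independent replicates, and each pair of arrays is shared by all points.

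Across the family, 38 promoter windows of 35 collagen symbols were in the RefSeq table, of 32851 windows in all. The median GC share was 59.8% for collagens and 52.7% for all windows. GGGCGG, on either strand, was in 60.5% of collagen windows and in 35.7% of all. TATAAA was in 13.2% and 13.6%, CCAAT in 34.2% and 37.4%, and CAGACA, the SMAD element, in 23.7% and 21% of collagen and all windows. The AP-1 motif TGANTCA was in the window of Col6a1 alone, or 2.63%, beside 7.81% of all windows. A match is a run of letters and not a measured binding site, and windows of neighbouring genes can overlap, as do those of Col4a1 and Col4a2.

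The genes that make, cut and crosslink collagen were read from a list by role. Of 48 genes, 47 had a probe and 42 were well above background on at least 1 array. The 42 had a median log2 change of 0.18 at 2 weeks and 0.15 at 8 weeks, with 1 gene up at 2 weeks, 2 at 8 weeks and none down. These counts lie near the shares of all genes that were up, 2.47% and 3.31%. The 15 genes of chain modification, most of them enzymes that hydroxylate or glycosylate the chains, had medians of 0.02 and 0.15 with none called. P4ha1, a catalytic subunit of prolyl hydroxylase, had 2.51, 2.52, 2.93 and 3.47 in the order of the groups, or 1.005-fold and 1.18-fold. The 10 chaperones and export factors had medians of 0.009 and 0.0009 with none called. Serpinh1, the collagen chaperone HSP47, had 14.3, 17.3, 16.4 and 17.2, or 1.21-fold and 1.05-fold.

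Genes of the steps outside the cell had larger changes. Of the 6 measured genes of propeptide cleavage, 5 were higher at 2 weeks and 4 at 8 weeks, with medians of 0.32 and 0.50. Adamts2, which removes the amino-terminal propeptide, had 6.002 and 10.5 at 2 weeks and 5.82 and 11.8 at 8 weeks, and was 2.02-fold higher at 8 weeks. Pcolce, which enhances the carboxy-terminal cut, had 40.9 and 61.4 at 2 weeks and 44.0 and 74.8 at 8 weeks, or 1.503-fold and 1.70-fold. All 4 measured crosslinking enzymes were higher at both times, with medians of 0.89 and 0.93. Loxl2, a lysyl oxidase that crosslinks collagen, had 3.11 and 6.50 at 2 weeks and 2.91 and 6.60 at 8 weeks, and was over 2-fold higher at both. Lox, the founding lysyl oxidase, was dim at 0.0802 and 0.155 at 2 weeks and 0.0717 and 0.102 at 8 weeks, or 1.94-fold and 1.42-fold. All 7 measured collagen receptors were higher at both times, with medians of 0.44 and 0.34, though none was over 2-fold. Ddr2, a receptor kinase for fibrillar collagen, had 2.38, 2.70, 2.57 and 2.64, and its change of 0.04 at 8 weeks was within the spread between spots.

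**Figure D5:**
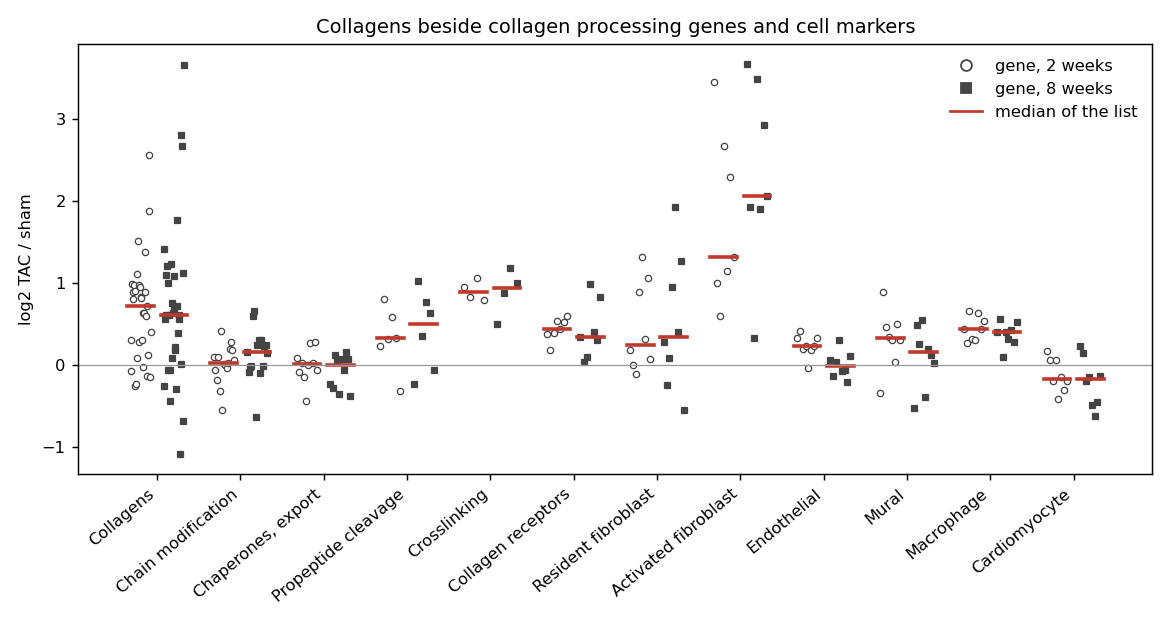
Log2 ratio of TAC over sham for measured genes of each list, with open circles for 2 weeks, filled squares for 8 weeks and a red bar at the list's median. Collagen, crosslinking and activated fibroblast genes have medians above 0.6 at both times, whereas chain modification, chaperone and cardiomyocyte genes lie near 0.

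Activated fibroblast markers were higher after TAC at both times, while resident fibroblast markers changed less, with 6 of 8 higher at each time. The activated fibroblast list had 7 of its 8 genes measured, with medians of 1.32 and 2.06. Over 2-fold higher were 5 at 2 weeks and 6 at 8 weeks, beside 2.47% and 3.31% of all genes. The summed signal of the list was 7.89 in sham and 24.1 in TAC at 2 weeks and 10.1 and 48.2 at 8 weeks. Such sums follow most the probes with the highest signals. Postn was 4.90-fold and 7.58-fold higher, Cilp 10.9-fold and 12.7-fold, Ltbp2 6.34-fold and 11.1-fold, Thbs4 2.49-fold and 4.17-fold and Meox1 2.20-fold and 3.72-fold. Comp was 3.77-fold higher at 8 weeks, and Cthrc1 was not well above background on any array. The resident fibroblast list had all 8 genes measured, with medians of 0.25 and 0.34 and summed signals of 349, 408, 364 and 475 in the order of the groups. Its Mfap5 and Pi16 were over 2-fold higher at both times, whereas the log2 changes were 0.31 and 0.40 for Pdgfra and 0.07 and -0.55 for Tcf21. The part of fibroblast number in the collagen values was not tested.

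The lists of other cell types were mixed. None of the 8 genes of the macrophage, endothelial, mural or cardiomyocyte lists was over 2-fold in either direction. Over all genes 2.47% were up and 1.21% down at 2 weeks, and 3.31% and 2.07% at 8 weeks. For lists of 8 genes, no call lies near those shares. The macrophage markers, Cd68 and Adgre1 among them, were higher in 8 of 8 genes at both times, with medians of 0.44 and 0.40 and summed signals of 39.2, 48.8, 40.9 and 52.8. The endothelial markers, Pecam1 and Cdh5 among them, had medians of 0.23 at 2 weeks and -0.01 at 8 weeks, with sums of 186, 228, 189 and 178. Egfl7 alone had 119, 159, 130 and 118, so these sums mostly follow that probe. The mural markers, Myh11 and Rgs5 among them, had medians of 0.32 and 0.15. Medians were lower at 8 than at 2 weeks for the endothelial and mural lists, and only slightly so for the macrophage list. The part of these cells in the collagen values was not tested. The cardiomyocyte markers had medians of -0.17 at both times and sums of 6163, 5753, 5976 and 5437. For the cartilage collagens, 4 of 6 cartilage and valve markers were measured, with sums between 0.520 and 0.624. Their median log2 change was 0.78 over the 3 measured at 2 weeks and -0.13 over the 4 at 8 weeks. Sox9 was 2.32-fold and 2.67-fold higher, Acan had log2 changes of 0.78 and 0.37 and Chad -0.10 and -0.62. Cnmd, well above background only in sham at 8 weeks, was at least 1.25-fold lower in TAC there, and Hapln1 and Matn3 were not well above background.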

How the data were processed

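Heart RNA of sham and TAC mice at 2 and 8 weeks was hybridized to 4 single-colour Agilent arrays annotated on mm9. The authors deposited scanner output of Feature Extraction 10.7.3.1 per the file headers (the submitters' processing notes name 9.1), whose processed intensity is background-subtracted, spatially detrended and not normalized between arrays. The deposited table of the series held the same intensities times a constant per array (4.26, 4.35, 4.00 and 3.52 for sham and TAC at 2 weeks and sham and TAC at 8 weeks, with column medians of 101, 106, 104 and 97.2). Its scale is linear, and how the constants were chosen is not given in the sources used here.

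The log2 intensity minus the array's 75th percentile over 55681 probes other than controls was used, without outlier spots. Where a probe was dim on the lower array, the fold was bounded from below by taking as the dim value whichever was larger, the probe's signal or the array's smallest signal well above background. Where the probe's own signal was the larger, the result is the measured ratio and not a bound. Probes were named through accessions in RefSeq and GENCODE tables (29501 probes matched). Gene positions and promoter windows are those of GRCm38.p6, and none was converted. Members, classes and lists were chosen with earlier results of these data known. Every collagen measured on at least 1 array was named. Of the pathway list, genes over 2-fold and P4ha1, Serpinh1, Lox, Pcolce and Ddr2 were named, and of each marker list its first genes and those over 2-fold. Egfl7 was named for its weight in a sum. One marker list is not reported here. With 1 array per group no statistical test was run, precision is limited by that number, and p-values were not computed. The calling script was tested on simulated data. Alternatives were quantile and median scaling, no normalization, another set of probes for the percentile, normexp with an offset of 50 (limma 3.58.1, R 4.3.3; on median signals, as no mean signal was at hand), the series table, dim-probe filters, outlier spots kept, probe means and thresholds of 1.5-fold and 3-fold. Python 3.11.15, pandas 2.3.3 and numpy 2.4.6 were used.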

Additional observations from a re-analysis of the deposited data

Results flagged for a closer look

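Col22a1 stood out because its change went in opposite directions at the 2 times. The log2 change after TAC was -0.24 at 2 weeks and 0.60 at 8 weeks, both larger than the SD of 0.154 between spots. Col22a1 was dim, with signals between 0.121 and 0.236, and was read from 1 spot per array. The SD leaves out probes near background, so it can understate the error for such a gene. Among the 26 collagens measured on all 4 arrays, 2 had changes of opposite sign, and of these Col22a1 was the 1 with both changes beyond that SD. Under normexp background correction its value at 2 weeks was 0.06, so the opposite directions depended on the background correction. With 1 array per group the difference between the times was not tested.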

How the results depend on the processing

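No change called up or down had the other sign under any alternative tried. Of 619 recomputed values of single genes, 68 changed by more than the spread between spots and 12 had the other sign. Those 12 belonged to 7 genes (Col4a6, Col7a1, Col20a1, Col22a1, Col23a1, Col25a1 and Col27a1), with values under the main setting between -0.24 and 0.09. Most of these 68 came from leaving out normalization between arrays (32) and from normexp background correction (23), with 10 from averaging all probes of a gene and 3 from quantile normalization. Without normalization the median of all genes at 8 weeks was 0.16 on the log2 scale, so changes under that setting stand relative to it.

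Of the 5 genes up at 2 weeks, the count was 1 under normexp, 3 when only probes measured on all 4 arrays were used, 19 at 1.5-fold and 2 at 3-fold. Of the 10 up at 8 weeks, it was 5 under normexp, 18 at 1.5-fold and 4 at 3-fold. Among these 10, Col4a3, Col8a2 and Col9a3 were well above background on TAC arrays only. They drop out when only probes measured on all 4 arrays are used. The 1 gene down at 8 weeks became 0 under quantile normalization, no normalization, normexp, probes measured on all 4 arrays and 3-fold, and 2 at 1.5-fold. When a dim probe counted only if its lower bound passed 2-fold, an alternative chosen after seeing the data, 4 genes were up at 2 weeks and 9 at 8 weeks, without Col8a2 and Col4a3 respectively. Col25a1 stayed among the 4 by its measured ratio, which is not a bound.

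The family median at 2 weeks went from 0.71 to 0.50 under normexp and 0.30 without the filter on dim probes, and at 8 weeks from 0.61 to 0.77 without normalization and 0.30 without the filter. Without normalization the medians at 8 weeks were 0.90 for fibrillar, 0.60 for basement membrane, 1.26 for FACIT and 0.72 for other collagens. Under normexp, that of basement membrane genes was 0.38 at 2 weeks and 0.20 at 8 weeks, that of FACIT genes 0.52 at 8 weeks and that of other genes 0.50 at 2 weeks. With probes measured on all 4 arrays, basement membrane genes had 0.22 and FACIT genes 0.85 at 8 weeks, and averaging probes gave basement membrane genes 0.65. Without the filter on dim probes, fibrillar genes had 0.63 at 2 weeks and 0.39 at 8 weeks, FACIT genes 0.85 at 8 weeks and other genes 0.12 at 2 weeks. The sign turned without that filter for FACIT genes at 2 weeks, to -0.19, and for other genes at 8 weeks, to -0.065, where genes near background on every array enter the median. The cause of the other differences was not tested.

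No paired analysis was possible because each group had 1 array. Leaving out an array would leave a group empty. Genes near background, such as Col8a2, Col9a3 and Col4a3, have only bounds on their change, and Col25a1 and Col6a6 only a measured ratio to a dim value.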

Other observations

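Further marker lists bear on which other tissue the heart pools may have held. Of the 6 epicardial markers 3 were measured, with summed signals of 1.65, 2.33, 2.31 and 2.99 in sham and TAC at 2 weeks and sham and TAC at 8 weeks. Wt1, an epicardial transcription factor, had log2 changes of 0.40 and 0.41, and Msln had 1.12 and -0.56. Upk3b was not well above background on any array. Krt19 was dim in the sham pools, and its fold at 8 weeks had a lower bound of 1.005.

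Of the 6 adipocyte markers only Cfd was measured, with log2 changes of -0.97 and 0.18, and Adipoq and Plin1 were not well above background. Of the 6 skeletal muscle markers 4 were measured. Acta1, the skeletal actin that the stressed heart also makes, was 8.53-fold and 10.6-fold higher, whereas Tnnt3 had log2 changes of 0.54 and 0.35, Tnni2 had -0.20 and -0.54, Ckm had -0.09 and -0.21, and Myh1 and Myh4 were not well above background.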
